A study of Homo sapiens with 16 samples.

Results

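The response to ultraviolet C light (UV) was read in U2OS, an established human bone sarcoma line, carrying an empty vector. Its members were 3 of the 16 libraries in the study: 2 from vector cells collected 6 h after 30 J/m2 of UV (replicates 1 and 2) and 1 from untreated vector cells (replicate 2). The library labelled untreated replicate 1 was set aside for reasons given below and was used only as a check. The genotype label of these cells is plko.puro, and all lines of the study were stable and grown in high-glucose DMEM with serum, antibiotics and puromycin. The other 3 genotypes, shPIP4K2A, shPIP4K2B and both together, knock down lipid kinases that phosphorylate phosphatidylinositol 5-phosphate, and each has 2 untreated and 2 UV libraries. For UV the culture medium was absent during irradiation and was supplied again afterwards. Whether untreated cells went through the same handling is not given in the sources used here, so light and handling cannot be told apart. The labels do not state whether replicates are separate cultures. The p-values therefore reflect variation among these libraries, which may be technical. Sequencing was of total RNA after rRNA depletion.

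UV of this kind links neighbouring pyrimidines in DNA. RNA polymerase II stalls at these lesions, which nucleotide excision repair removes, so long genes are the most likely to carry a block. Stress kinases of the p38 and JNK families, the checkpoint kinase ATR and p53 are known to act in irradiated cells, and immediate early genes, whose short transcripts are made without new protein synthesis, are known targets of such signals.

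Levels below are CPM, the usual depth-scaled count: the expected count over the library total. Log2 fold changes are UV minus untreated and also carry a factor for library composition (edgeR's TMM), which was 1.10 for the untreated library and 0.937 and 0.914 for the UV libraries, so a gene with unchanged CPM has a fold change above 0. A gene is said to rise or fall when its adjusted p was under 0.05 in edgeR's quasi-likelihood test with Benjamini-Hochberg adjustment over 22597 genes. The fit held 15 libraries, because the single untreated vector library has no spread of its own and was assumed to vary like the other groups.

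The UV libraries held 39.9 and 31.7 M counts and the untreated library 28.6 M. The library set aside held 1.28 M, with 14.6% of its counts on mitochondrial genes (95% Wilson interval 14.5 to 14.6%) against 2.20 to 3.43% in the other 15 libraries, and a mean fragment length of 399 bases against 200 to 253. Wilson intervals here cover counting error only. Of the markers of the sarcoma line's mesenchymal and osteoblast lineage, VIM (2589, 3062 and 2842 CPM in the untreated and the 2 UV libraries) was high, whereas TWIST1 and IBSP were at 0 in all 3 libraries. Of the 11 tested in this list, SPARC rose by 0.50, RUNX2 fell by 0.61 and 9 did not pass. In the library set aside TWIST1 was at 40.7 CPM, IBSP at 10.2 CPM, the collagen gene COL1A2 at 201 CPM against at most 0.627 CPM in the 3 others, and the monocyte gene CD14 at 27.4 CPM against at most 0.0699 CPM. Other markers were lower there: COL1A1 was at 109 CPM against at least 2351 CPM, SPARC at 225 CPM against at least 1272 CPM, THY1 at 71.2 CPM against at least 175 CPM and VIM at 1454 CPM. Across genes its correlation with each other library lay between r = 0.443 and 0.527 on the log2 CPM scale, whereas among the remaining 15 it lay between 0.959 and 0.998. Whether it is the sample that its label names was not tested, so a comparison with it, here or in the fit of all 16 libraries, is not one with a known untreated vector control. The summed level of 10 blood cell markers was 7.48 CPM untreated and 10.1 and 9.11 CPM after UV, with CD3E and LYZ among those at 0, and CD68 alone rose. The 12 epithelial markers summed to 285 CPM untreated and 347 and 348 CPM after UV, mostly KRT8 and KRT18, and of these markers MUC1 alone rose. The 8 neural markers summed to 231, 239 and 228 CPM and the 7 endothelial ones to 11.4, 8.97 and 10.3 CPM, and of these only the neurofilament gene NEFL rose. The part of these markers in the results was not tested.

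Over all genes tested 1959 rose (8.67%) and 2219 fell (9.82%), together 4178 or 18.5%. Among the 11495 genes with a mean of at least 5 CPM over the 3 libraries, 14.7% rose and 13.6% fell, together 28.3%. Shares of gene lists below are read beside both backgrounds, and genes past this level are called well expressed. Falls were larger than rises: 865 genes fell at least 2-fold and 306 rose as much, and the median was -0.86 among falls and 0.61 among rises. Scaling decides the split. With library totals alone the all-gene median moved from 0.02 to -0.23 and 584 genes rose while 4290 fell. With scaling to the summed ribosomal protein genes the median moved to -0.70, and 151 rose while 10868 fell. The count also depends on single libraries: it was 2529 or 2380 without UV replicate 1 or 2, and 6540 or 6494 without UV replicate 1 or 2 of the PIP4K2A knockdown, which enters only the estimate of spread (6446 without both). Of 154 genes named below that passed, 138 still passed without UV replicate 1 and 137 without UV replicate 2. Both times VEGFA, ATF3, ID1, EP300, FOXO1, IGF1R, CETN2, MT-ND5, SF3B6, MT1X and CCNE1 did not. CYCS, MT-CYB, EEF1A1, HEXIM1 and HSPA1A did not pass without replicate 1, and NPAT, MRPL44, MT-ND1, MALAT1, SRSF5 and CDKN3 did not without replicate 2. In the fit of all 16 libraries, which includes the library set aside, 217 genes rose and 2204 fell. Measured against that library in place of replicate 2, the mean CPM after UV lay on the same side for 73.0% of the genes that rose and 72.6% of those that fell. The matching shares over all genes tested were not computed.

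**Figure D1:**
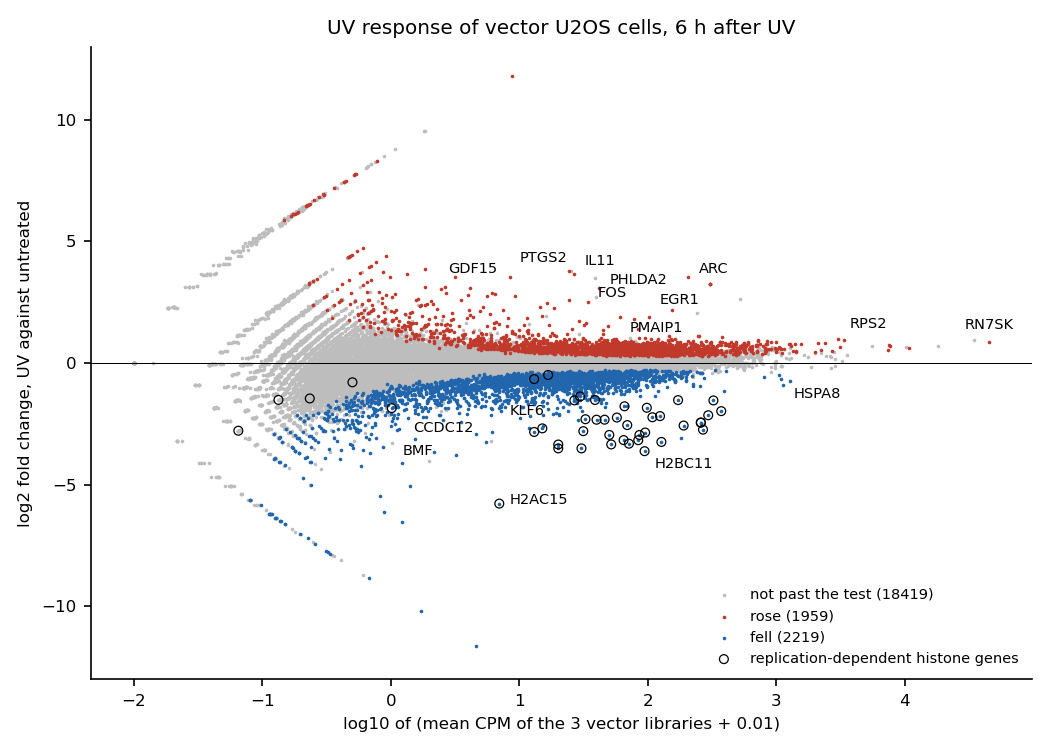
Log2 fold change after UV (vertical axis) against mean level (horizontal axis, log10 CPM) for each of 22597 genes in vector U2OS cells, with genes that rose in red, genes that fell in blue and histone genes circled. Most histone genes lie below -1 while ARC, PTGS2 and IL11 lie above 3; with ribosomal protein scaling the median gene moves to -0.70 and RPS2, at 0.93, to 0.20.

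The 15 largest rises among protein-coding and long noncoding genes with a gene symbol and a mean of at least 5 CPM took in the cytokine genes IL11 and GDF15 and the immediate early genes ARC, FOSB and FOS. PTGS2 (ENSG00000073756, GENCODE release 29 chr1:186671791-186680427, minus strand) encodes the inducible cyclooxygenase that makes prostaglandin precursors. It stood at 3.01 CPM without UV and 36 and 34.4 CPM with it, a log2 fold change of 3.80 (SE 0.26) with adjusted p = 1.81e-06. In the library set aside PTGS2 was at 295 CPM, above the UV libraries, so its rise rests on untreated replicate 2 and the sign turned to -0.78 in the fit of all 16 libraries. IL11, a cytokine of the interleukin 6 family, stood at 3.56 CPM without UV and 39.3 and 36.8 CPM with it (log2 fold change 3.67, SE 0.29), and was also high in the library set aside, at 44.6 CPM. GDF15, a stress-induced cytokine, stood at 1.26 CPM without UV and 11.4 and 12.8 CPM with it (log2 fold change 3.52, SE 0.29), and 3.91 CPM in that library lay below both UV libraries. The neutrophil chemokine gene CXCL8 was rare, with 5 counts untreated and 79 and 57 after UV, and its 3.66 log2 turned to -1.34 with all 16 libraries. Of 13 EGF family and receptor genes 2 passed, both rises, with a list median of -0.10. That is 15.4%, below the 18.5% of all genes and 28.3% of well expressed ones. HBEGF stood at 15.8 CPM without UV and 41.7 and 40.9 CPM with it. AREG stood at 0.559 CPM without UV and 2.58 and 3.03 CPM with it.

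Secreted factors did not move in a single direction. In the list of 27 cytokine and prostaglandin genes 23 were tested, 10 rose (43.5%) and 3 fell (13%), with a median of 0.25 (-0.47 with ribosomal protein scaling, -0.01 with library totals alone). LIF, a cytokine that signals through the same receptor subunit as IL11, stood at 74.7 CPM without UV and 21.9 and 23.1 CPM with it and fell (log2 fold change -1.48, SE 0.12). INHBA, the activin A subunit, fell by 0.52 log2, as did the angiogenic factor VEGFA (-0.41). For each of these 3 both UV libraries lay below the untreated one.

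Among 35 tested genes of the immediate early and AP-1 list, 19 rose and 5 fell, 68.6% against 18.5% of all genes and 28.3% of well expressed ones, with a median of 0.59 (-0.14 with ribosomal protein scaling). ARC, an immediate early gene best known from neurons, stood at 30.2 CPM without UV and 289.7 and 296 CPM with it (log2 fold change 3.53, SE 0.25, adjusted p = 2.53e-06), and at 25 CPM in the library set aside. FOS, an AP-1 subunit, stood at 9.54 CPM without UV and 44.4 and 47.7 CPM with it (log2 fold change 2.53, SE 0.19), but it was at 49.3 CPM in the library set aside, above both UV libraries. FOSB stood at 2.27 CPM without UV and 13.1 and 12.3 CPM with it (log2 fold change 2.74, SE 0.30). The other AP-1 subunits JUNB and JUND rose by 1.34 and 0.96. JUN itself, the partner of FOS, was at 88 CPM without UV and 54.8 and 50.5 CPM with it and did not pass (log2 fold change -0.49, SE 0.24, adjusted p = 0.183). FOSL2 (-0.96) and the small MAF gene MAFK (-1.24) fell. ATF3, a stress-induced factor of the same superfamily, rose by 0.43, which became -0.30 with ribosomal protein scaling.

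EGR1, a zinc finger factor, stood at 42.2 CPM without UV and 129 and 136 CPM with it (log2 fold change 1.91, SE 0.21). The antiproliferative genes BTG1 and BTG2 rose by 1.41 and 1.40. Of the phosphatases that switch MAP kinases off, DUSP1 and DUSP2 rose by 0.96 and 1.58, while DUSP10, DUSP16 and DUSP7 fell, at -1.09, -1.07 and -0.72. The phosphatase and Sprouty list had 2 rises and 4 falls of 18 tested (33.3% called), with a median of -0.31. Outside these lists the rule named PHLDA2, an imprinted gene that limits placental growth (8.28 CPM without UV and 48.4 and 68 CPM with it), SAT1, the rate-limiting enzyme of polyamine breakdown (1.5 CPM without UV and 10.4 and 7.55 CPM with it), and the orphan receptor gene GPR3 (6.57 CPM without UV and 32.2 and 34.1 CPM with it). SHISA2, LRATD1, C11orf96 and the long noncoding RNA LINC02434 rose by 2.27, 2.20, 2.30 and 2.47. SAT1 and LRATD1 stood higher in the library set aside than after UV, at 113 and 79.8 CPM, and turned negative with all 16 libraries. SMIM11 and RFPL4AL1, the last of the 15 by size, have near-identical copies that make their counts uncertain.

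**Figure D2:**
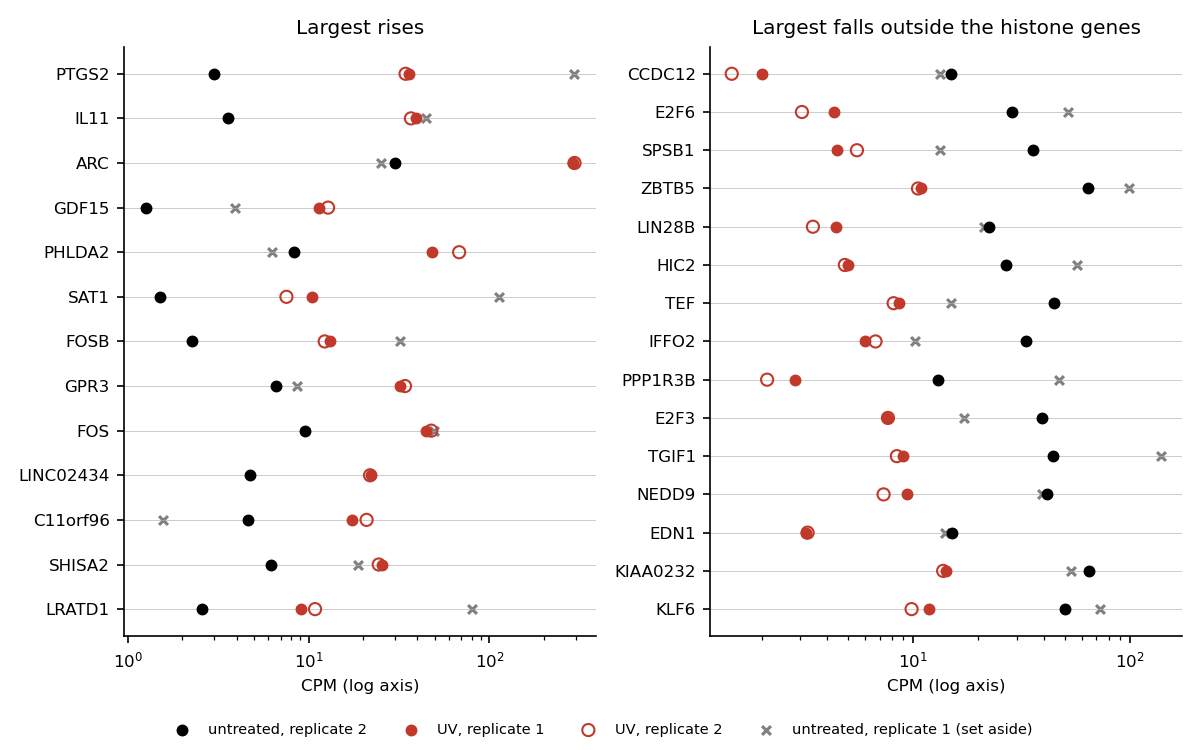
CPM on a log axis for 13 of the 15 largest rises (left) and the 15 largest falls outside the histone list (right), a point per vector library, with the set-aside library as a grey cross (LINC02434 is at 0 there and has none). The 2 UV libraries lie close together and apart from untreated replicate 2, whereas the cross lies above the UV points for PTGS2, IL11, SAT1, FOSB, FOS and LRATD1.

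Start-site windows of EGR1 and PTGS2 are shown because they are short inducible genes whose levels rose in both UV libraries. The windows are RefSeq sequence of GRCh38.p14, from 250 bases before to 50 after the start site, 5′ to 3′ on the gene's strand. Capitals mark the serum response element known as the CArG box, and the TATA box TATAAA, on either strand. EGR1 lies at chr5:138465229-138465528 on the plus strand and PTGS2 at chr1:186680374-186680673 on the minus strand.
EGR1: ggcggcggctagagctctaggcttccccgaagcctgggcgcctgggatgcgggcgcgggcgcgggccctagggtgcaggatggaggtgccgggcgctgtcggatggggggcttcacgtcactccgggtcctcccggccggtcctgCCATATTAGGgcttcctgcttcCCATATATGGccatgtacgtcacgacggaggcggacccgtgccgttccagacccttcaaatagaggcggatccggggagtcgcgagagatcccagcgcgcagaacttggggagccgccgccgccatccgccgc
PTGS2: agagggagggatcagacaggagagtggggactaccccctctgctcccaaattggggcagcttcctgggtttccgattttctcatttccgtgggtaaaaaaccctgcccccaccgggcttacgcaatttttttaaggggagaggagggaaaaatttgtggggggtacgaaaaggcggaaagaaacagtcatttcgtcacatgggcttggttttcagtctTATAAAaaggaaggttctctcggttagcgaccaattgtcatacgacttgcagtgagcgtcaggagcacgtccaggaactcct
A CArG box was in 1.29% of 35116 windows of this length and in 1.07% of the 13517 that belong to tested genes, and EGR1 holds 2, at -105 and -83. TATAAA was in 11.5% of all windows and 6.95% of those of tested genes, and PTGS2 holds it at -32. Of the 15 genes with the largest rises, which leave out EGR1, 12 had a window and 5 of these held TATAAA. A CArG box was in 0 of these 12 windows and in 2 of 27 windows of the immediate early list. The 15 largest falls outside histones had 13 windows, none with TATAAA. The cyclic AMP response element TGACGTCA (1.85% of all windows and 3.02% of those of tested genes) was in 1 of the 12, and the AP-1 element TGANTCA (7.71 and 5.39%) in 2. These are matches of letters and say nothing of binding.

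Most replication-dependent histone genes fell. These genes are transcribed in S phase, have no introns as a rule and make mRNAs that end in a stem-loop rather than a poly(A) tail. Of 43 tested, 37 fell and 0 rose (edgeR; 0 at an unadjusted p under 0.05 and 0 by DESeq2), with a median of -2.45 and a range from -5.78 to -0.49. As a share of all counts they went from 0.845% (Wilson interval 0.841 to 0.848%) in the untreated library to 0.139% (0.138 to 0.140%) and 0.146% (0.145 to 0.148%) after UV. The library set aside had 0.0825%, so against it the direction turns. In the knockdown lines the share was 0.598 to 0.759% untreated and 0.156 to 0.195% after UV.

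Each of the 5 histone classes had members that fell: 3 of 3 for the linker histones H1, 10 of 11 for H2A, 9 of 11 for H2B, 7 of 7 for H3 and 8 of 11 for H4. The medians ran from -2.84 for H2A to -1.53 for H4. Summed over its genes, H3 went from 2406 to 304 and 328 CPM and H2B from 2398 to 440 and 477 CPM. H2BC11 (ENSG00000124635, GENCODE release 29 chr6:27125897-27132750, minus strand) stood at 249 CPM without UV and 15.8 and 18 CPM with it (log2 fold change -3.63, SE 0.14, adjusted p = 4.21e-08). The H3 gene H3C2 stood at 644 CPM without UV and 79 and 82.5 CPM with it, and the linker histone gene H1-2 at 642 CPM without UV and 112 and 130.5 CPM with it. H4C3 (-0.66) and H4C15 (-0.49) did not pass. Many of these genes are near-identical copies, so counts can be split among them and the level of a single gene is uncertain.

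Genes for proteins that handle these transcripts were tested as a list of their own. SLBP, which binds the stem-loop, fell by 0.80 log2, as did NPAT, the activator of histone genes (-0.50). Of 17 processing factors and chaperones 5 fell (29.4%) and 0 rose (edgeR; 2 at an unadjusted p and 0 by DESeq2). Among all genes 8.67% rose and 9.82% fell, and among well expressed ones 14.7% rose and 13.6% fell. Of 11 replication-independent histone variants 4 rose (36.4%) and 1 fell (9.09%). With library totals alone 1 rose and 1 fell, and with ribosomal protein scaling 0 rose and 5 fell. H3-3B, which encodes the H3.3 variant, rose by 0.77 (0.05 with ribosomal protein scaling), while CENPA, the centromeric H3, fell by 0.91.

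The windows of H2BC11 and H2BC21 are shown because H2B promoters share short elements. Capitals mark the octamer (ATTTGCAT), the CCAAT box, the TATA box and the CArG box on either strand. H2BC11 lies at chr6:27132746-27133045 and H2BC21 at chr1:149886633-149886932, both on the minus strand, in GRCh38.p14 from RefSeq.
H2BC11: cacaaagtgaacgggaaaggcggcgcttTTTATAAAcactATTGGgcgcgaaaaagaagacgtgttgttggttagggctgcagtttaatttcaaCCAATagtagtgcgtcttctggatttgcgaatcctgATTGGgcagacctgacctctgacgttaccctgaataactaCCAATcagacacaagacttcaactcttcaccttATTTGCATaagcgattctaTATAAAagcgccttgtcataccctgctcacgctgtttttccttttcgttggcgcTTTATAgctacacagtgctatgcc
H2BC21: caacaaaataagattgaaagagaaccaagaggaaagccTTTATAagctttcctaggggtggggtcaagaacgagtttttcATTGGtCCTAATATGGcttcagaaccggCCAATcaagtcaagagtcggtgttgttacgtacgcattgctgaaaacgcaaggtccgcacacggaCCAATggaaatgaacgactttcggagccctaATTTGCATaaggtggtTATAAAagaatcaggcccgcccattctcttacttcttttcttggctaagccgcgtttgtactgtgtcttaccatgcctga
The octamer lies at -47 in H2BC11 and at -46 in H2BC21. It was in 8 of 11 windows of tested H2B genes and 8 of 10 of H2A genes, in 1 of 19 of the other histone genes, in 1.77% of all windows and in 1.47% of those of tested genes. CCAAT was in all 11 H2B windows and in 34.6% of all windows and 36.0% of those of tested genes. H2BC21 also holds a CArG box, at -164. H2BC21 stood at 444 CPM without UV and 60.6 and 64.5 CPM with it (log2 fold change -2.57, SE 0.12).

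Genes for transcription regulators were among the other falls. Outside histones the largest fall among protein-coding and long noncoding genes with a gene symbol and a mean of at least 5 CPM was CCDC12, a spliceosome-associated protein gene, at 14.9 CPM without UV and 2.01 and 1.45 CPM with it (log2 fold change -2.84, SE 0.18). E2F6, a repressor of the E2F family, stood at 28.4 CPM without UV and 4.33 and 3.06 CPM with it and E2F3, an activator of S-phase genes, at 39.1 CPM without UV and 7.57 and 7.64 CPM with it. The zinc finger repressor genes ZBTB5 and HIC2 fell, at -2.32 and -2.18. SPSB1, an adaptor of a ubiquitin ligase, fell by 2.60. LIN28B, which blocks let-7 maturation (-2.25), NEDD9, a focal adhesion scaffold (-2.06), and EDN1, the endothelin 1 precursor (-1.97), fell as well. PPP1R3B, IFFO2 and KIAA0232 fell, at -2.13, -2.13 and -1.96. The library set aside lay above both UV libraries for each of these 12.

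KLF factors, zinc finger regulators that bind GC-rich promoters, fell in 6 of 14, 42.9% against 9.82% of all genes and 13.6% of well expressed ones, and rose in 0 (edgeR; 0 at an unadjusted p and 0 by DESeq2), with a median of -0.30. KLF6 (ENSG00000067082, GENCODE release 29 chr10:3775996-3785281, minus strand) stood at 50 CPM without UV and 11.8 and 9.82 CPM with it (log2 fold change -1.95, SE 0.11, adjusted p = 7.75e-07). KLF9, KLF3, KLF7, KLF5 and KLF11 fell, at -1.16, -1.15, -1.14, -1.03 and -0.75.

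In the TGF-beta and BMP list 14 of 29 fell, 48.3% against 9.82% of all genes and 13.6% of well expressed ones, and 1 rose, with a median of -0.31. The falls took in a ligand, BMP4 (92.8 CPM without UV and 24 and 25.6 CPM with it), the inhibitors SMAD7 (44.2 CPM without UV and 10.8 and 10.3 CPM with it) and SMURF1 (-0.93), the corepressor TGIF1 (44 CPM without UV and 8.93 and 8.4 CPM with it) and the targets ID1 (-1.05) and ID3 (-1.24). ID4 rose by 0.88. YAP and TEAD targets had 7 falls (30.4%) and 1 rise of 23: AMOTL2 fell by 1.15, as did ANKRD1 (-0.94), while CCN2 rose by 0.52, or -0.21 with ribosomal protein scaling. Of 22 NOTCH pathway genes 5 fell (22.7%) and 1 rose, the ligand gene DLL4, from a level near 0. The receptor NOTCH1 (-0.63) and LFNG, the glycosyltransferase that tunes it (-0.69), were among those that fell.

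Zinc finger genes named ZNF on chromosome 19 fell in 73 of 213 (34.3%, beside 9.82% of all genes and 13.6% of well expressed ones) and rose in 2, with a median of -0.50. Clock genes fell in 7 of 19 (36.8%) and rose in 0 (edgeR; 0 at an unadjusted p and 0 by DESeq2). The PAR bZIP factors TEF and DBP, outputs of the clock, stood at 44.4 CPM without UV and 8.58 and 8.12 CPM with it and 30.6 CPM without UV and 12.6 and 13.2 CPM with it, and the repressors CRY2 and PER2 fell, at -1.27 and -0.84. Of 24 FOXO, PI3K and insulin genes 8 fell (33.3%) and 0 rose (edgeR; 3 at an unadjusted p and 0 by DESeq2), median -0.33. PIK3R1, the regulatory subunit of PI3K, stood at 42.9 CPM without UV and 12.7 and 11.7 CPM with it, FOXO1 fell by 0.79, and IGF1R fell too (-0.42). Among 57 chromatin regulators 18 fell (31.6%) and 0 rose (edgeR; 2 at an unadjusted p and 1 by DESeq2), median -0.24. SETD1A, a histone H3 lysine 4 methyltransferase, fell by 1.14, as did the BAF subunit ARID1A (-0.74) and the acetyltransferase EP300 (-0.54).

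**Figure D3:**
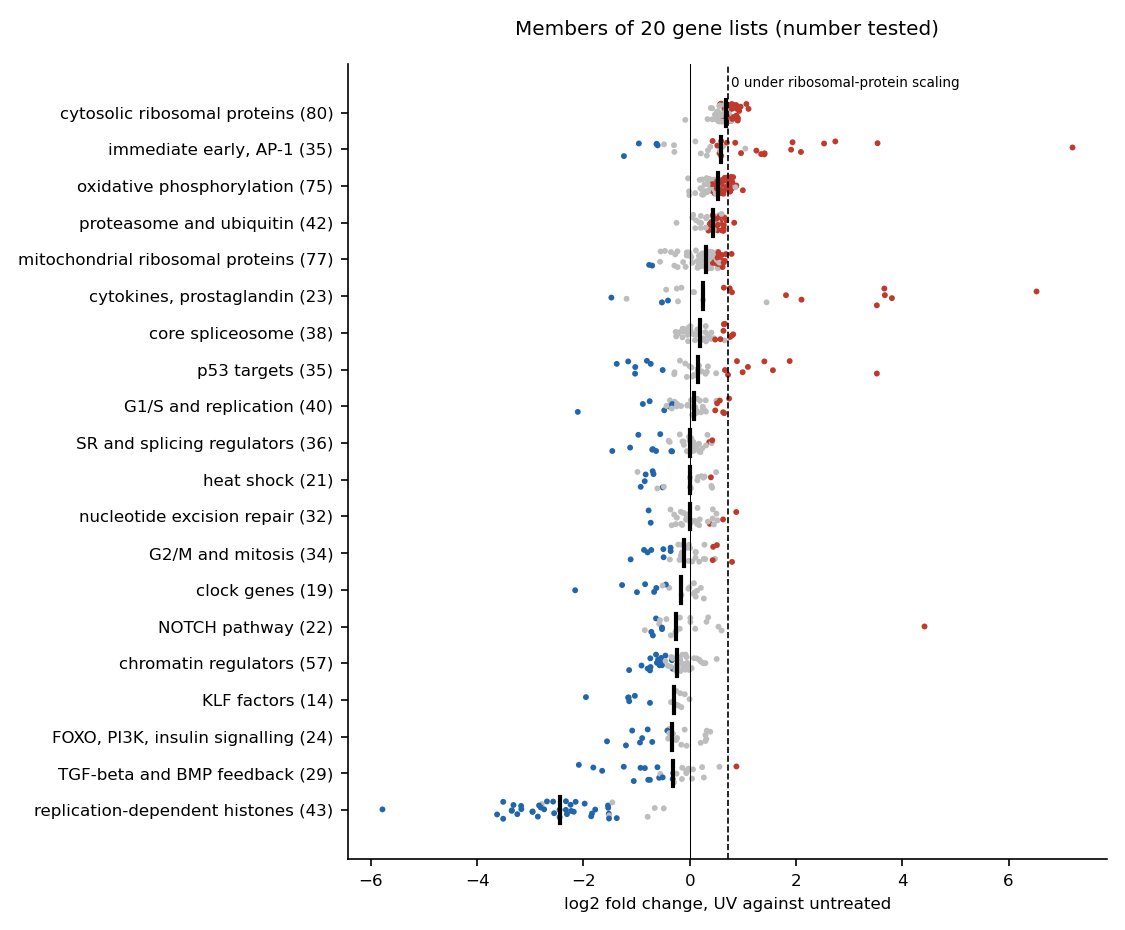
Log2 fold change (horizontal axis) of every tested member of 20 lists, a dot per gene, red for rises, blue for falls and grey for neither, with the list median as a black bar. Histone genes stand apart at -2.45; the dashed line marks where 0 lies with ribosomal protein scaling, so that medians to its left, including 0.52 for oxidative phosphorylation, are negative on that scale.

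The p53 target list was mixed, with 9 rises and 7 falls of 35 (45.7% called, beside 28.3% of well expressed genes) and a median of 0.15 (-0.57 with ribosomal protein scaling, -0.11 with library totals alone). PMAIP1, the BH3-only protein NOXA, stood at 25.2 CPM without UV and 81.5 and 74.1 CPM with it (log2 fold change 1.88, SE 0.28). PLK3, a stress kinase gene, stood at 16.1 CPM without UV and 38.3 and 41.5 CPM with it, and GADD45A, a growth arrest gene, at 16.9 CPM without UV and 31.3 and 25.2 CPM with it. Of the negative regulators of mTORC1, SESN1 and SESN2 fell, at -1.16 and -1.37. The nuclease gene AEN fell by 1.03, as did the p53 cofactor TP53INP1 (-0.81). CDKN1A, the p21 inhibitor of cell cycle kinases, was at 203 CPM without UV and 181 and 177 CPM with it and did not pass (log2 fold change 0.07, SE 0.11, adjusted p = 0.709). MDM2, the p53 ubiquitin ligase, was at 152 CPM without UV and 117 and 91.5 CPM with it (log2 fold change -0.29, SE 0.20, adjusted p = 0.348).

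In the BCL2 family 4 of 20 rose and 4 fell, 40% against 18.5% of all genes and 28.3% of well expressed ones. Besides PMAIP1, BID rose by 0.76. BMF, a BH3-only gene tied to loss of attachment, stood at 8.63 CPM without UV and 0.552 and 0.474 CPM with it (log2 fold change -3.80, SE 0.19), the deepest fall among these genes, on 247 counts untreated and 22 and 15 after UV. BCL2L11, which encodes the BH3-only protein BIM, stood at 45.6 CPM without UV and 12.7 and 11.7 CPM with it. The survival gene MCL1 stood at 118 CPM without UV and 56 and 52.8 CPM with it (log2 fold change -0.86, SE 0.09). Falls in this family thus took in both pro-death and survival members. Of 18 caspase, adaptor and inhibitor genes 2 rose and 2 fell (22.2% called, below the 28.3% of well expressed genes). CYCS, cytochrome c, rose by 1.11, while the death receptor adaptor FADD fell by 1.48.

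Of 32 nucleotide excision repair genes 3 rose and 2 fell, 15.6% against 18.5% of all genes and 28.3% of well expressed ones, with a median of -0.00284 (-0.73 with ribosomal protein scaling). The damage sensor DDB2 was at 81.8 CPM without UV and 71.1 and 69 CPM with it (log2 fold change 0.03, SE 0.13, adjusted p = 0.902) and XPC at 38.1 CPM without UV and 26.9 and 25.3 CPM with it (log2 fold change -0.29, SE 0.17, adjusted p = 0.258). ERCC6, which acts at stalled polymerase, fell by 0.74, as did CDK7, the kinase of TFIIH (-0.77). CETN2, a partner of XPC, rose by 0.87. Of 14 translesion synthesis genes 1 rose and 1 fell (14.3% called, below the 28.3% of well expressed genes). These were the ubiquitin conjugase gene UBE2A, which rose by 0.73, and the polymerase gene REV1, which fell by 0.77. POLH, the polymerase that copies past UV lesions, was at 58.1 CPM without UV and 41.9 and 43.7 CPM with it and did not pass (log2 fold change -0.19, SE 0.10).

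The shares of the cell cycle lists that passed in either direction were 30 to 35.3%, beside 28.3% of well expressed genes. Of well expressed genes 14.7% rose and 13.6% fell. Checkpoint genes had 2 rises (7.69%) and 6 falls (23.1%) of 26 (30.8% called). CDC25A, the phosphatase that starts S phase, stood at 47.8 CPM without UV and 13 and 11.7 CPM with it (log2 fold change -1.69, SE 0.15), WEE1, the kinase that opposes it, at 76.8 CPM without UV and 27.7 and 27.6 CPM with it, and ETAA1, an activator of ATR, at 27.5 CPM without UV and 9.63 and 10.1 CPM with it. CHEK1 was at 38.8 CPM without UV and 40.1 and 35.2 CPM with it, with untreated inside the UV range. In the G1/S list 6 rose and 6 fell of 40 (30%). CCNE1, cyclin E1, fell by 0.48 with adjusted p = 0.0495. In the G2/M list 4 rose (11.8%) and 8 fell (23.5%) of 34 (35.3% called). The falls included CCNF (-1.11), AURKA (-0.80) and TTK (-0.86), whereas CDKN3 rose by 0.79.

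The cytosolic ribosomal protein, nuclear-encoded oxidative phosphorylation and proteasome lists had rises but no falls among the members that passed, and with ribosomal protein scaling their medians were below 0. The background was 8.67% rising among all genes and 14.7% among well expressed ones. Of 80 cytosolic ribosomal protein genes 47 rose (58.8%) and 0 fell (edgeR; 0 at an unadjusted p and 0 by DESeq2), median 0.69, which is -0.04 with ribosomal protein scaling, which centres them by design, and 0.43 with library totals alone. Their share of counts was 3.15% untreated and 4.30 and 4.43% after UV. RPS25 stood at 249.8 CPM without UV and 451 and 425 CPM with it and RPL30 at 94.8 CPM without UV and 159 and 183 CPM with it. Of 75 nuclear-encoded oxidative phosphorylation genes 37 rose (49.3%) and 0 fell (edgeR; 0 at an unadjusted p and 0 by DESeq2), median 0.52, or -0.21 with ribosomal protein scaling. The complex IV subunit NDUFA4 stood at 113 CPM without UV and 180.1 and 198 CPM with it and UQCRH, of complex III, at 38.9 CPM without UV and 65.4 and 54.1 CPM with it. Of 42 proteasome and ubiquitin genes 21 rose (50%) and 0 fell (edgeR; 0 at an unadjusted p and 0 by DESeq2), median 0.44, or -0.28 with ribosomal protein scaling.

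Mitochondrial ribosomal protein genes had 18 rises (23.4%) and 2 falls (2.60%) of 77, median 0.31 (-0.41 with ribosomal protein scaling). MRPL11 rose by 0.79 and MRPL44 fell by 0.71. Among protein-coding and long noncoding genes with a symbol, a class that leaves out RN7SK, the 10 largest gains in CPM included the cytoskeletal gene ACTB (8932 CPM without UV and 11313 and 11818 CPM with it), the glycolytic gene GAPDH (6184 CPM without UV and 8245 and 8491 CPM with it) and the ferritin chain genes FTL (2082 CPM without UV and 3183 and 3721 CPM with it) and FTH1 (1804 CPM without UV and 2758 and 2623 CPM with it), with MT-CO1, EEF1A1, RPS2, PABPC1, MT-ND1 and RPSA. On ribosomal protein scaling ACTB and GAPDH were at -0.10 and -0.03. HSPA8, the constitutive HSC70 chaperone, had the largest loss of CPM in the same class, at 1787 CPM without UV and 810.2 and 768 CPM with it (log2 fold change -0.92, SE 0.10). THBS1, a matrix glycoprotein, fell by 0.48.

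The 13 mRNAs encoded by mitochondrial DNA did not move as a block: 2 rose and 2 fell (30.8% called, beside 28.3% of well expressed genes). MT-ND1 (GRCh38 mitochondrial positions 3307 to 4262) stood at 1576 CPM without UV and 2247 and 2455 CPM with it and MT-CO1 (5904 to 7445) at 6012 CPM without UV and 8091 and 8531 CPM with it, and both rose. MT-ND5 (12337 to 14148) stood at 1556 CPM without UV and 811 and 864 CPM with it and MT-CYB (14747 to 15887) at 1900 CPM without UV and 890.2 and 1020 CPM with it, and both fell. On the heavy-strand transcript, the genes from MT-ND1 to MT-CO3 had fold changes from 0.83 to 0.21, and those from MT-ND3 onward 0.17 or lower. This cut was placed with the values in view. It parts MT-ATP6 (0.21, SE 0.13) from MT-ND4 (0.17, SE 0.18), which differ by less than either SE. The knockdown lines did not keep it. MT-ND4 lay above MT-ATP6 in the PIP4K2A line (0.15 against 0.07). MT-ND4L lay above MT-ATP8 in the PIP4K2B line (0.22 against -0.40) and in the double line (-0.19 against -0.25). MT-ND6, alone on the other strand, had a log2 fold change of -0.56, SE 0.24 and did not pass. With ribosomal protein scaling MT-ND1 was at 0.11 and MT-CO1 at -0.00303, neither past the test.

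Among RNA-handling genes, 8 of 38 core spliceosome genes rose (21.1%, beside 14.7% of well expressed genes) and 0 fell (edgeR; 2 at an unadjusted p and 0 by DESeq2), median 0.20, or -0.53 with ribosomal protein scaling, with SF3B6, of the branch-point complex, at 0.82 and the Sm protein gene SNRPG at 0.66. Of 30 hnRNP genes 3 rose, a share of 10% near the background, and 0 fell (edgeR; 0 at an unadjusted p and 0 by DESeq2). Of 36 SR proteins and splicing regulators 2 rose and 9 fell (25%, beside 13.6%). RBM5, a regulator of apoptotic exons, stood at 60.7 CPM without UV and 18.9 and 18.1 CPM with it (log2 fold change -1.46, SE 0.10), the SR protein kinase gene CLK2 at 22.6 CPM without UV and 8.95 and 8.43 CPM with it and SRSF5 at 89.9 CPM without UV and 50.3 and 42.8 CPM with it. Of 34 RNA polymerase II and elongation genes 7 rose and 3 fell (29.4% called, beside 28.3%): the small subunit POLR2K rose by 0.99, the elongation factor ELL fell by 1.32, and the large subunit POLR2A had a log2 fold change of -0.18, SE 0.23 and did not pass. RN7SK, the scaffold that holds the elongation kinase P-TEFb inactive, took 3.34% of counts untreated and 4.92 and 5.35% after UV (log2 fold change 0.88, SE 0.13, or 0.15 with ribosomal protein scaling). HEXIM1, its protein partner, rose by 0.67 (-0.05 on that scale). The nuclear RNAs NEAT1 (244 CPM without UV and 130.1 and 114 CPM with it) and MALAT1 (1132 CPM without UV and 704 and 568 CPM with it) fell.

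Of 21 heat shock genes 1 rose and 6 fell (33.3% called, beside 28.3% of well expressed genes). The falls included HSPA1A (125 CPM without UV and 55.8 and 60.3 CPM with it) and DNAJB1 (168 CPM without UV and 88.4 and 86.6 CPM with it). Of 23 NRF2 and oxidative genes 8 rose and 4 fell (52.2% called). Thioredoxin, TXN, stood at 46.6 CPM without UV and 71.6 and 66.4 CPM with it and the metallothionein MT1X at 8.04 CPM without UV and 14.3 and 13.5 CPM with it, both higher, while HMOX1, haem oxygenase 1, fell by 1.02, as did GCLC, a glutathione synthesis enzyme (-0.74). KEAP1, the sensor that degrades NRF2, fell by 1.04. Of 28 ATF4 and unfolded protein response genes 5 rose and 5 fell (35.7% called). ATF4 itself rose by 0.64 (-0.09 with ribosomal protein scaling) and CEBPB by 0.81, whereas HERPUD1, an endoplasmic reticulum stress gene, stood at 40.4 CPM without UV and 10.9 and 11.3 CPM with it and TRIB3, an ATF4 target, at 35.4 CPM without UV and 14.6 and 16.4 CPM with it, both lower.

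The cholesterol list had 4 rises and 6 falls of 33 (30.3% called, beside 28.3% of well expressed genes). Of 44 lysosome and autophagy genes 7 rose and 7 fell (31.8%). The autophagosome proteins MAP1LC3B and GABARAPL2 rose by 0.89 and 0.84, while TFEB, their transcription factor, and RUBCN, an inhibitor of autophagy, fell, at -1.31 and -0.95. The glucose transporter SLC2A1 fell by 0.70 and the glycolytic enzyme TPI1 rose by 0.74.

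The response also differed with gene architecture, measured as genomic span in GENCODE release 29. Among 1343 protein-coding genes of 1 to 5 kb, 21.9% rose and 6.33% fell, with a median of 0.33. Between 20 and 50 kb 9.36% rose and 13.4% fell. From 100 to 200 kb 5.99% rose and 12.5% fell, with a median of -0.01. From 200 to 500 kb 5.90% rose and 11.7% fell. Over 500 kb 5.73% rose and 8.96% fell, with a median of 0.06. The share that fell was thus lower over 500 kb than between 20 and 50 kb. The median untreated level was lower there too, 5.70 CPM against 23.4 CPM. Among protein-coding genes above 1 CPM in 2 libraries the shares that fell were 10.8 and 14.7%. The part of expression level in this was not tested. The 73 genes under 1 kb, many of them histone genes, went the other way, with 8.22% rising and 30.1% falling. Over all gene types the 1 to 5 kb class had 10.5% rising and 6.58% falling, beside 5.45 and 8.33% over 500 kb. Across 15314 protein-coding genes the rank correlation of fold change with span was -0.14, a description, since the genes share the same 3 libraries and are not independent. The 15 largest rises had a median span of 4.04 kb and the 15 largest falls outside histones 48.4 kb. With ribosomal protein scaling the 1 to 5 kb median was -0.39 and the median over 500 kb -0.66.

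**Figure D4:**
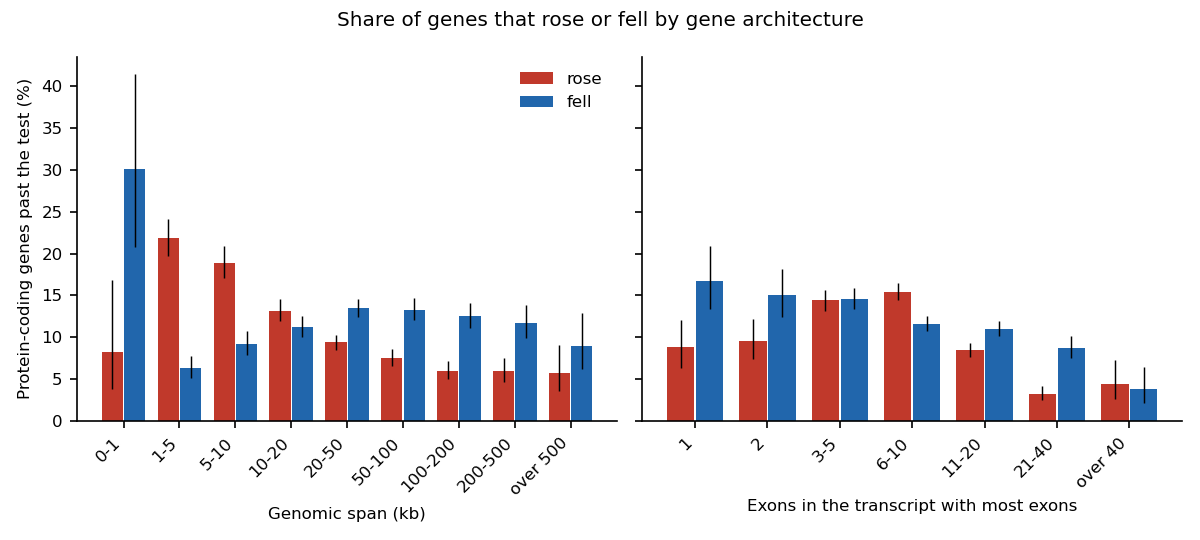
Share of protein-coding genes that rose (red) or fell (blue), in percent, by genomic span in kb (left) and by the exon number of the transcript with most exons (right); bars are shares and error bars 95% Wilson intervals over genes, which are not independent. Rises fall from 21.9% at 1 to 5 kb to 5.73% over 500 kb on the main scale.

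By exon number, 15.4% of genes with 6 to 10 exons rose and 11.6% fell, while 3.20% of those with 21 to 40 exons rose and 8.76% fell. Single-exon genes had 8.78% rising and 16.8% falling, and they include many of the histone genes that fell. The shares without histone genes were not computed. Among other types, 155 of 1894 antisense genes fell (8.18%) and 65 rose (3.43%), both below the 9.82 and 8.67% of all genes tested. Their median level was 0.66 CPM untreated. Without a stated strand setting their reads cannot be told apart from those of the partner gene.

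Isoform use was read only through the length that the deposited tables give per gene, the mean transcript length weighted by isoform abundance. Of 11543 genes tested in limma, 94 changed (0.814%), 49 to longer and 45 to shorter forms, and 27 of the 94 also fell in expression (28.7%) while 8 rose (8.51%), beside 13.6 and 13.7% of the 11543. The count was 12 without UV replicate 1 and 20 without UV replicate 2, and 2 in the fit of all 16 libraries. PPP1R10, a nuclear targeting subunit of protein phosphatase 1, went from 1831 bases to 1026 and 1094 (-0.79 log2, SE 0.09), and its expression fell by 1.81 log2. FBXW7, a ubiquitin ligase subunit, went from 3061 to 1684 and 1673 bases (-0.87), and the slingshot phosphatase gene SSH2 from 2586 to 1331 and 1197 bases (-1.03). In the other direction CPT1B, a carnitine palmitoyltransferase, went from 928 to 1820 and 1798 bases (0.96), MARF1 from 3962 to 6615 and 6657 bases (0.74) and POLR1A, the large subunit of RNA polymerase I, from 6743 to 10433 and 10416 bases (0.63). Adjusted p in limma ran from 0.00731 for FBXW7 to 0.0209 for POLR1A. In fits without UV replicate 1 or 2, PPP1R10, MARF1 and POLR1A did not pass either time, and CPT1B passed in only 1. All the named shifts kept their sign there, with PPP1R10 from -0.84 to -0.74 and POLR1A at 0.63 both times.

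The knockdown lines give the same measure in libraries that enter the vector comparison only through the estimate of spread. UV changed 30.6% of genes in the PIP4K2A line, 32.9% in the PIP4K2B line and 35.2% in the line with both knocked down. Each of these lines has 2 untreated libraries and vector cells 1. These shares and the 18.5% of vector cells are thus not at equal power. Of the 1959 genes that rose in vector cells, 1883 (96.1%) had a positive fold change in all 3 lines and 1373 (70.1%) rose in all 3. Of the 2219 that fell, 2143 (96.6%) were negative in all 3 and 1540 (69.4%) fell in all 3. The same shares over all genes tested were not computed, so these stand without a background. Across 22597 genes the fold changes of vector cells correlated with those of the 3 lines at r = 0.51, 0.47 and 0.53, a description across genes. FOS was at 2.91, 2.79 and 3.15 in the 3 lines in that order, KLF6 at -1.95, -2.20 and -2.17, BMF at -2.57, -3.05 and -3.25 and PMAIP1 at 1.82, 1.67 and 2.23.

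A test of the difference itself, the vector response minus the mean of the 3 knockdown responses, called 1 gene of 22597 (0.00443%), while 1227 (5.43%) had an unadjusted p under 0.05 and DESeq2 called 25. That gene was DDIT4 (ENSG00000168209, GENCODE release 29 chr10:72273920-72276036, plus strand), which encodes REDD1, an inhibitor of mTORC1. In vector cells it stood at 91 CPM without UV and 41.9 and 43.5 CPM with it (log2 fold change -0.84, SE 0.13). In the 6 untreated knockdown libraries it was at 24.7 to 34.3 CPM and in the 6 UV ones at 32.3 to 37.8 CPM, with fold changes of 0.63, 0.44 and 0.42. The difference was -1.33 log2 (SE 0.14, adjusted p = 0.0129), and its level was higher in vector than in knockdown libraries both untreated and after UV. It rests on untreated replicate 2 alone on the vector side, adjusted p was 0.134 or 0.143 without vector UV replicate 1 or 2 and 0.0592 without untreated PIP4K2B knockdown replicate 1, and it was -0.69 with adjusted p = 0.532 in the fit of all 16 libraries.

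Histone genes fell in the lines too, with medians of -1.79, -1.84 and -2.04 against -2.45 in vector cells, and no histone gene passed the test of the difference. H2BC11 was at -3.63 against -2.61, -2.40 and -3.10, with adjusted p = 0.136 for the difference, H2BC21 at -2.57 against -1.66, -1.54 and -2.11 (0.136) and H1-2 at -2.15 against -0.76, -1.16 and -1.63 (0.197). The kinase genes that the hairpins target did not pass for UV in vector cells: PIP4K2A was at 62.9 CPM without UV and 51.5 and 55.8 CPM with it (log2 fold change 0.03, SE 0.11), PIP4K2B at 107 CPM without UV and 81.7 and 76.1 CPM with it (log2 fold change -0.18, SE 0.12) and PIP4K2C, which no hairpin targets, at 56.9 CPM without UV and 56.5 and 56.9 CPM with it (log2 fold change 0.25, SE 0.12).

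**Figure D5:**
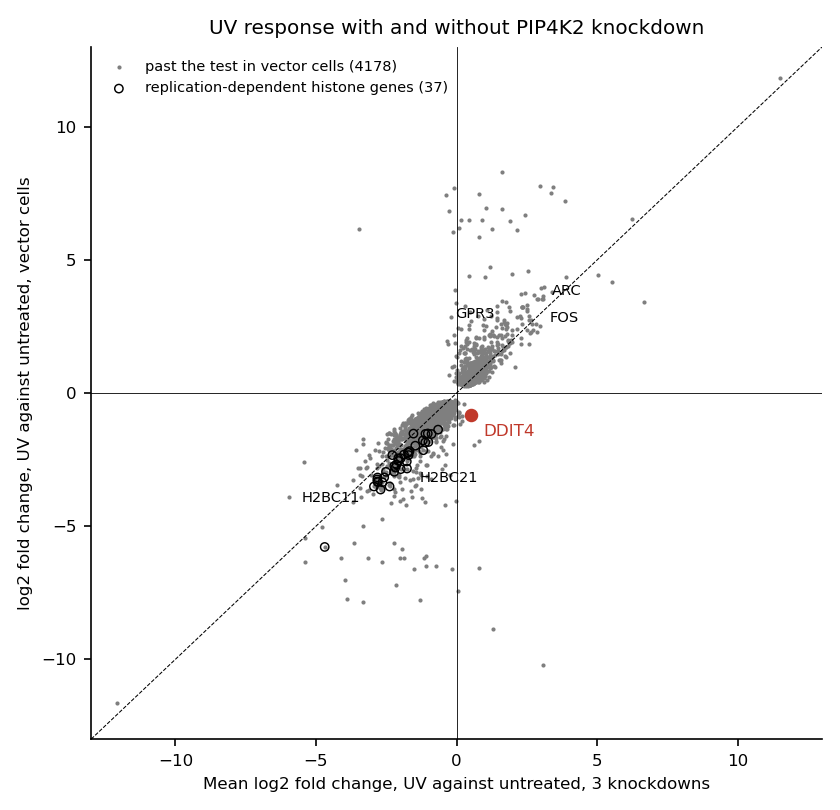
Log2 fold change after UV in vector cells (vertical axis) against the mean of the 3 knockdown lines (horizontal axis) for the 4178 genes that changed in vector cells, with 37 histone genes circled, DDIT4 in red and the line of equality dashed. On the main scale DDIT4 lies below 0 in vector cells and above 0 in the knockdowns, and the difference rests on 1 untreated vector library.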

How the data were processed

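The series holds 16 RNA libraries of U2OS lines in 8 groups of 2. Per the submitters' processing notes the tools were STAR, SAMtools and RSEM on GRCh38; for versions, annotation release and strand setting: not given in the sources used here. The deposited tables give, per the file headers, an expected count, a TPM and an abundance-weighted transcript length for each of 60666 genes, of which 58420 were found in GENCODE release 29. Expected counts were rounded to whole numbers. Genes passed edgeR's filterByExpr with a minimum count of 10, were scaled by TMM and tested with edgeR's quasi-likelihood test in a single fit of 15 libraries, 1 coefficient per group. The log2 length was tested with limma for genes with a mean count of at least 100 and at least 10 in each library. The deposited TPM values were used in no test. The vector libraries held 28.6 to 39.9 M counts, so that counting error is small for all but rare genes. The members and the 49 gene lists were chosen with earlier results of these data known, and 1446 of 1449 list entries were matched. Genes named were, among protein-coding and long noncoding genes that have a symbol, average 5 CPM or more and show no overlap between UV and untreated libraries, the 15 largest rises, falls and falls outside histones, the 10 largest gains and losses of CPM, list members whose role is described, and genes past the test of the difference or with the largest length shifts. Alternatives were other scalings, filters, DESeq2, a replicate block, all 16 libraries, the 3 vector libraries alone and leaving out each library. The tests were tried on simulated counts. Replicate numbers showed little pairing of the 7 groups with 2 libraries: over 21 pairs of groups the correlation of deviations ran from -0.116 to 0.188. The untreated vector group could not be checked in this way. Software was R 4.3.3, edgeR 4.0.16, limma 3.58.1, DESeq2 1.42.0, Python 3.11.15 with matplotlib 3.10.9, scipy 1.17.1, numpy 2.4.6 and pandas 2.3.3.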

Additional observations from a re-analysis of the deposited data

Results flagged for a closer look

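DDIT4 stood out because its response differed between vector and knockdown cells by a test of the difference itself. The vector response minus the mean of the 3 knockdown responses was -1.33 log2 (edgeR's quasi-likelihood test, adjusted p = 0.0129). The fold change was -0.84 in vector cells and 0.63, 0.44 and 0.42 in the 3 knockdown lines, so every line had the opposite sign on the main scale. With ribosomal protein scaling the difference was -1.20. The sign in each line on that scale is not given here, so the opposite signs hold for the main scale only. With 1 untreated vector library, the part of that library in the difference was not tested.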

How the results depend on the processing

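The untreated vector group could not be tested without its only library. The number of genes changed, 4178, was 2421 with all 16 libraries, 7350 with only the 3 vector libraries, 11019 with ribosomal protein scaling and 6446 without both UV libraries of the PIP4K2A knockdown, an alternative chosen after seeing the data, and 2380 to 6540 without 1 library. Rises, 1959, became 217, 3765, 151 and 3240 in those fits, 584 with library totals alone and 983 to 3554 without 1 library. Falls, 2219, became 3585 with only the vector libraries, 10868 with ribosomal protein scaling, 4290 with library totals alone and 1397 to 3069 without 1 library. The difference from the knockdowns called 1 gene, against 2 with CPM above 1, 25 with DESeq2, 3 with RLE or with library totals alone, 0 with all 16 libraries, 151 with no filter, 2 with ribosomal protein scaling and 0 to 54 without 1 library. The PIP4K2A, PIP4K2B and double knockdowns had 124, 150 and 228 genes with all 16 libraries, 14593, 15304 and 14851 with ribosomal protein scaling, and 4617 to 8496, 4454 to 9272 and 4960 to 9826 without 1 library. Changed lengths, 94, became 2 with all 16 libraries and 12 to 20 without 1 vector UV library. The replicate block gave 3742 changed genes, 50 changed lengths and 1 gene for the difference. The labels do not state what same-numbered samples share beyond the number. For spans of 1 to 5 kb the share rising, 10.5%, was 21.9% for protein-coding genes and 26.6% for those above 1 CPM, where 7.78% fell. Of 49 lists 32 had a median above 0, 12 with library totals alone and 0 with ribosomal protein scaling. With all 16 libraries the sign turned for PTGS2 (-0.78), CXCL8 (-1.34), JUN (0.0524), SAT1 (-1.31), LRATD1 (-0.67), DUSP7 (0.0148), ARID1A (0.0218), EP300 (0.26), IGF1R (0.37), LFNG (0.23), NOTCH1 (0.15), MDM2 (0.27), XPC (0.46), POLH (0.0418), REV1 (0.0198), MT-ND1 (-0.30), THBS1 (0.36), POLR2A (0.67), DNAJB1 (0.0433), CCNE1 (0.34), TTK (0.0171) and PIP4K2B (0.29). With ribosomal protein scaling it turned for ATF3 (-0.30), CCN2 (-0.21), CDKN1A (-0.65), DDB2 (-0.69), CHEK1 (-0.51), MT-CO1 (-0.00303), GAPDH (-0.0336), ACTB (-0.10), EEF1A1 (-0.17), PABPC1 (-0.0687), SNRPG (-0.0642), HEXIM1 (-0.0498), ATF4 (-0.0895), PIP4K2A (-0.70) and PIP4K2C (-0.47). With library totals alone it turned for CDKN1A (-0.18), DDB2 (-0.22), CHEK1 (-0.0401), PIP4K2A (-0.23) and PIP4K2C (-0.0049). With only the vector libraries it turned for DDB2 (-0.00508) and PIP4K2A (-0.0116), and PIP4K2A ran from -0.0518 to 0.10 without 1 library. The cause was not tested.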
